A study of Mus musculus with 8 samples.

Results

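The basement membrane and its cell-surface receptors were examined through 35 genes, found by symbol among the 24982 genes of the deposited count table: laminin and collagen IV chains, nidogens, perlecan, agrin, the dystroglycan complex and other basement membrane proteins. Basement membranes are thin sheets of extracellular matrix on which cells rest or in which they are wrapped. Laminins, trimers of an alpha, a beta and a gamma chain, assemble at the cell surface, collagen IV forms a cross-linked network beside them, and nidogens and the heparan sulfate proteoglycans perlecan and agrin tie both together. Cells hold the sheet through integrins and through dystroglycan, which the sarcoglycans stabilise and which dystrophin or utrophin connects to actin. In tendon, such sheets lie at the tendon surface and around vessels and nerves, and cultured fibroblasts also express many of the genes.

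Tail tendon fibroblasts of C57Bl/6 mice had been cultured and sequenced as total RNA. All libraries came from cells that had received 4-hydroxytamoxifen (4HT). The Scx-deleted group (genotype Scx-, libraries 2, 3, 4 and 5) was compared with the Scx-positive group (genotype Scx+, libraries 2, 3, 5 and 6), and values per library are given in that order of numbers. Scx encodes scleraxis, a transcription factor with a basic helix-loop-helix domain that marks tendon cells. The labels do not give the driver or the extent of the deletion, nor whether the libraries are from different animals or cultures, and p-values therefore rest on a spread that may be technical.

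Scx held 1 to 3 counts per Scx-deleted library and 132 to 252 per Scx-positive library, from 17343228 to 25180790 gene counts per library. Defining markers of several cell types that make basement membranes were near the floor: Pecam1 averaged 0.112 ± 0.0958 CPM in Scx-deleted and 0.302 ± 0.0843 CPM in Scx-positive cells, Cldn5 had no count in any library, and the muscle factors Pax7, Myod1 and Myf5 had none. Of 10 skeletal muscle genes 9 were below 1 CPM. Acta1 was not, at 30.1 ± 4.21 CPM in Scx-deleted and 36.4 ± 3.34 CPM in Scx-positive cells, and it fell (log2 change -0.28 ± 0.09, SE, edgeR adjusted p = 0.0281). Of 12 endothelial genes 7 were below 1 CPM, 3 rose and 1 fell. The gene that fell was Tek, the highest of them, at 46.6 ± 3.55 CPM in Scx-deleted and 74.3 ± 7.43 CPM in Scx-positive cells (log2 change -0.67 ± 0.07, SE, edgeR adjusted p = 4.65e-06). The summed endothelial list ranged from 57.8 to 61.3 CPM in Scx-deleted and from 73.5 to 91.8 CPM in Scx-positive libraries. Of 12 Schwann and perineurial cell markers 1 rose (Slc2a1, log2 change 0.45) and 4 fell (log2 changes of S100b -0.51, Prx -0.34, Cldn1 -1.29 and Itgb4 -0.41), while Sox10, at 6.46 ± 1.20 CPM in Scx-deleted and 5.99 ± 0.620 CPM in Scx-positive cells, did not pass. The summed list of 11 mural cell markers ranged from 951 to 978 CPM in Scx-deleted and from 749.9 to 892 CPM in Scx-positive libraries, with Pdgfrb and Cspg4 the highest of them. Of the 9 tested mural markers 3 rose, those 2 and Ndufa4l2, and 2 fell, Rgs5 (log2 change -0.99) and Notch3 (-0.27), while Higd1b had no count. Of 10 tested tendon fibroblast markers, 9 fell, and Mkx did not pass the test. The 9 include Scx itself, whose fall was set by the deletion. Across all genes tested, 14.5% fell. The part of other cells in the results was not tested, and in bulk RNA fewer cells of a type and less RNA per cell cannot be told apart. Scx-positive library 5 lay away from its group on the second principal component, which held 15.7% of the variance, and of the 30 tested members 14 had their highest Scx-positive value in it. The median GC content of those 14 was 53.8%, against 51.6% for the others, and its part in their values was not tested.

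Most basement membrane genes that changed were lower without Scx, and most changes were modest. The largest was in Hmcn1, which encodes hemicentin 1 and fell to 41.4% of the Scx-positive level. The laminin alpha 4 gene Lama4 fell to 55.2% and the nidogen 2 gene Nid2 to 62.9%, while the abundant network collagen genes Col4a1 and Col4a2 had a log2 difference of 0.00. The genes that rose were Smoc2, at 1.38 times, and Lama3, at 1.57 times the Scx-positive level. Of the 35 members, 30 had enough counts to be tested, and 14 of these fell and 2 rose by edgeR's quasi-likelihood test at a Benjamini-Hochberg adjusted p under 0.05. Across all 13125 genes tested, 14.5% fell and 14.0% rose (28.5% in either direction). The median log2 change was -0.15 over the tested members and -0.01 over all genes tested. In 14 of the 30 tested members the groups did not overlap, against 29.1% of all genes tested. Of the 32 members listed in the authors' deposited table, 19 are called there, against 29.2% of its genes. Without Scx-positive library 5 the count that rose was 5 instead of 2, with Lama1, Lama5 and Dag1 added, and in that fit 18.3% of all genes tested rose.

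**Figure D1:**
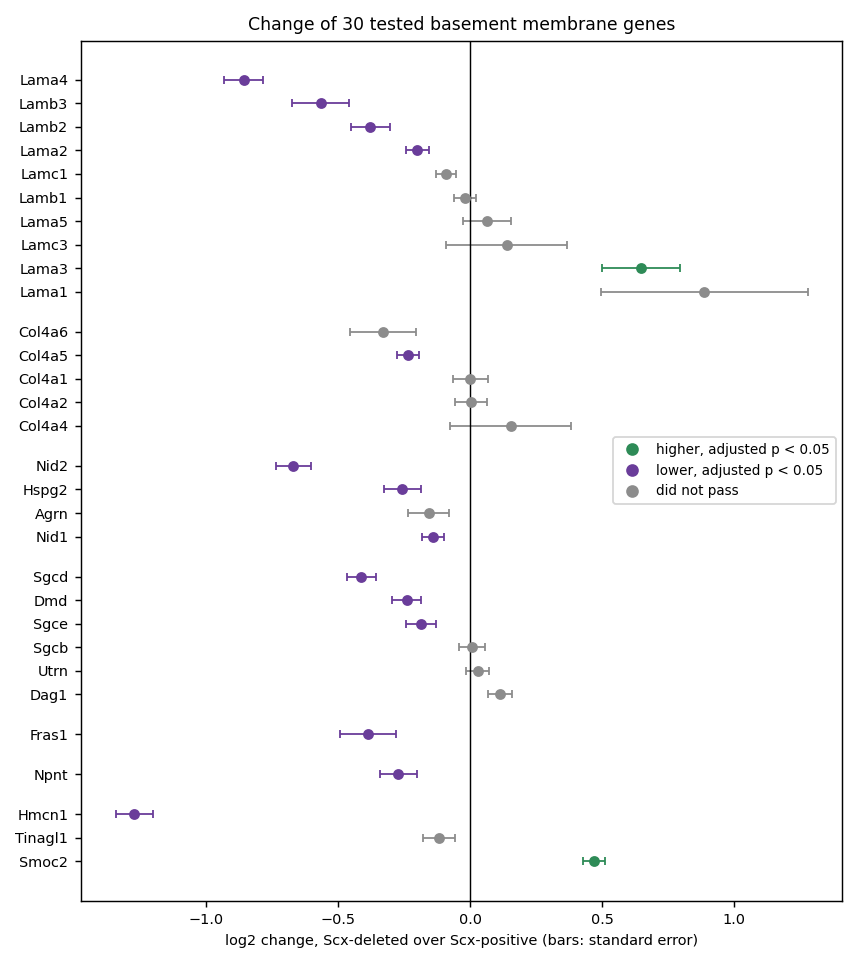
Log2 change of Scx-deleted over Scx-positive cells for the 30 tested members, ordered within laminins, collagen IV, nidogens with proteoglycans, the dystrophin complex, Fras1, Npnt and the other proteins from top to bottom. Points are edgeR estimates and bars standard errors, with called rises in green, called falls in purple and the rest in grey; Hmcn1 lies farthest left at -1.27, and Col4a1 and Col4a2 lie at 0.

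The members spanned a wide range of levels. RPKM, which is CPM divided by the length of the longest transcript in kilobases, is used for comparisons between genes. Nid1 was the most abundant per length, at 336 ± 13.2 RPKM in Scx-deleted and 371 ± 9.96 RPKM in Scx-positive cells (SD, n = 4 each), followed by the perlecan gene Hspg2 at 203 ± 12.3 RPKM in Scx-deleted and 242 ± 29.0 RPKM in Scx-positive cells. Tinagl1, Col4a1 and Col4a2 came next, and in Scx-positive cells Tinagl1 at 184 ± 17.0 and Col4a1 at 174 ± 17.7 RPKM did not differ beyond their spread. Dag1, Lamc1, Lamb2, Lamb1 and Smoc2 lay between 56.7 and 98.3 RPKM in Scx-positive cells. Smoc2 stood below both beta chains in Scx-positive cells, and at 78.4 ± 3.25 RPKM in Scx-deleted and 56.7 ± 1.75 RPKM in Scx-positive cells it stood above both in Scx-deleted cells. At the low end, Smoc1, Col4a3, Egflam, Frem1 and Frem2 did not reach the count needed for a test. Smoc1 had 3 to 7 counts per Scx-deleted library and 5 to 7 per Scx-positive library. Frem1 and Frem2, genes of the Fraser complex, were lower still, with 1 to 4 counts per Scx-deleted library and 1 to 2 per Scx-positive library for Frem1 and 1 to 2 counts per Scx-deleted library and 1 to 5 per Scx-positive library for Frem2. Egflam, which encodes the dystroglycan ligand pikachurin, had 2 to 5 counts per Scx-deleted library and 0 to 2 per Scx-positive library.

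**Figure D2:**
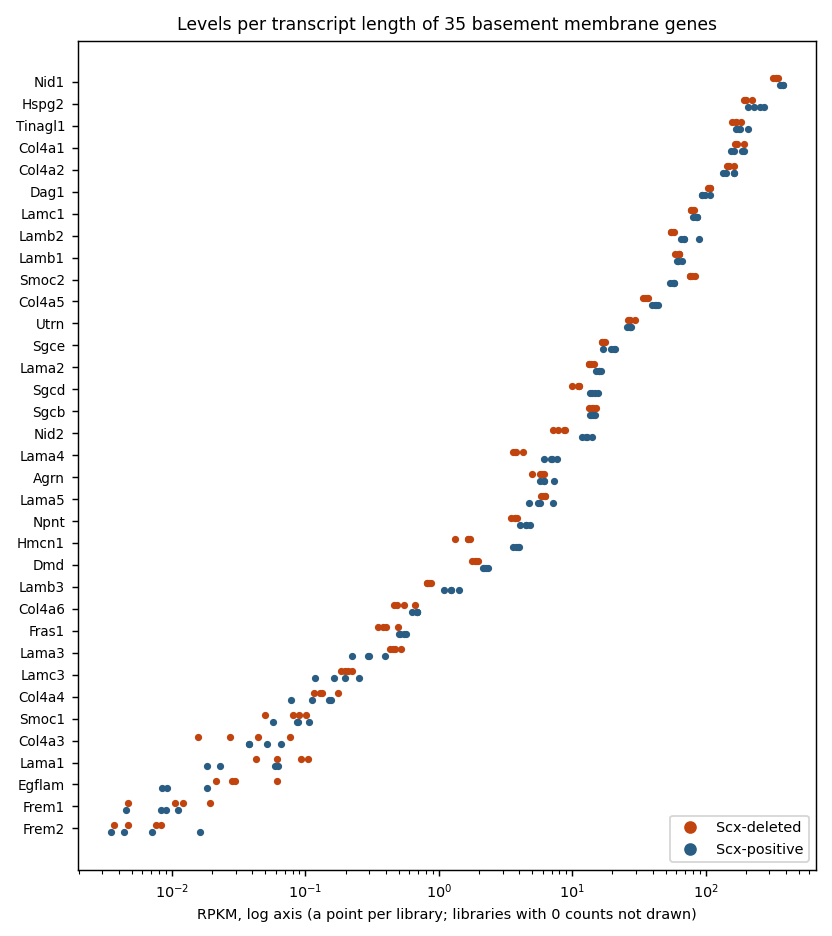
RPKM on a log axis for all 35 members, a point per library, ordered by the Scx-positive mean. Nid1 leads at 336 RPKM in Scx-deleted and 371 RPKM in Scx-positive cells, and the separation of the groups is widest for Hmcn1 among the tested members.

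Scleraxis belongs to a family that binds E-boxes, DNA sites of the form CANNTG, so the 250 bases before each RefSeq start (GRCm38.p6, the same assembly as mm10) were searched for these letters. The reference held promoters for 24 of the 35 members. Of the 10 members among them that changed, 7 had at least 1 CANNTG, against 8 of 14 that were not called or not tested and 69.3% of all 27025 genes with a promoter. The letters CAGATG, or CATCTG on the other strand, which are also counted as CANNTG, occurred before 4 of the 24 members. That is 16.7%, close to the 16.3% of all genes. By window, 12.5% of member windows held them, against 14.4% of all promoter windows. They lay before 4 of the 10 called members and 0 of the other 14, a split that was not tested. All 10 called members with a promoter fell, so the direction of any 4 of them was fixed. The 4 with the letters were Lamb3, Lamb2, Lama2 and Col4a5. Their sequences are shown, 5′ to 3′ on the gene's strand, with these letters in capitals, because they are the called members that hold them. The letters start 38 bases before the Lamb3 start, 174 before Lamb2, 180 before Lama2 and 247 before Col4a5. For none of the 4 is the start used the outermost one. All 250 bases of the Lamb3 window with the letters and 249 of the Lama2 window lie within the RefSeq span of the gene. Their letters are thus inside the gene, not upstream of it. The Lamb2 window holds 15 bases of the RefSeq span of its gene and the Col4a5 window 49. The letters of both lie before that span. The other Lamb3 window held no such letters. The stretches shown leave out annotated exons, and for Lama2 only 12 bases on each side are given.
Lamb3, chr1:193301744-193301992, plus strand: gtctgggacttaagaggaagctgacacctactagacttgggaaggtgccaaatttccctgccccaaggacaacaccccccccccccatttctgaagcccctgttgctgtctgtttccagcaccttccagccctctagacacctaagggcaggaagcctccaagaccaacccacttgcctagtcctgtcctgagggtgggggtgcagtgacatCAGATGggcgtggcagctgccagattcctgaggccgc
Lamb2, chr9:108479612-108479735, plus strand: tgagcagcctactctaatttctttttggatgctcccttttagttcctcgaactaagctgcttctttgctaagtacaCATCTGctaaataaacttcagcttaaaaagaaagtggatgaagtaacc
Lama2, chr10:27617105-27617134, minus strand: aataatgttttcCATCTGgagggatttcac
Col4a5, chrX:141475169-141475369, plus strand: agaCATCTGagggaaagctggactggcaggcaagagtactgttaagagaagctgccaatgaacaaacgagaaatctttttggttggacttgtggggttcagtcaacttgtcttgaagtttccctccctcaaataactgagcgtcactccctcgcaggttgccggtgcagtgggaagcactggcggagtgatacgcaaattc
A match describes letters in a short window and is no sign of binding, and the largest change, Hmcn1, had no CANNTG in its window. Of the 250 bases of that window, 217 lie within the RefSeq span of Hmcn1, so few bases upstream of the gene were searched.

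Laminin alpha chains decide which receptors a laminin binds. Lama4, the chain of vessel and fat cell basement membranes (chromosome 10, 38965515 to 39110188, plus strand of GRCm38), fell. Its level was 21.7, 22.8, 26.0 and 22.6 CPM in the Scx-deleted libraries, against 41.5, 42.8, 46.8 and 37.1 CPM in the Scx-positive libraries. The groups did not overlap, and Scx-positive library 5 was the highest and 6 the lowest of its group. The log2 change was -0.86 ± 0.07 (SE, edgeR adjusted p = 6.9e-07). The endothelial gene Tek fell as well, as given above. The endothelial receptor gene Kdr rose, with 3.07 ± 0.533 CPM in Scx-deleted and 2.18 ± 0.236 CPM in Scx-positive cells (log2 change 0.48 ± 0.15, SE, edgeR adjusted p = 0.0272). Of 7 tested adipocyte markers 3 rose (log2 changes of Pparg 0.53, Fabp4 0.40 and Lpl 0.19) and none passed as lower. Those that did not pass were Adipoq (-0.40), Plin1 (-0.36), Cidec (-0.78) and Cebpa (0.11), and Lep had no count. The part of these cells in the Lama4 values was not tested. Lama2, the chain of muscle and Schwann cell basement membranes and the most abundant alpha chain here, had 132, 140.2, 128 and 128 CPM in the Scx-deleted libraries, against 152, 153, 144 and 158 CPM in the Scx-positive libraries. It fell by a smaller amount, at a log2 change of -0.20 ± 0.04 (SE, edgeR adjusted p = 0.00303), with every Scx-deleted library below every Scx-positive one.

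Lama5, a widely expressed alpha chain, did not pass the test. It stood at 68.8, 66.0, 71.0 and 71.2 CPM in the Scx-deleted libraries, against 65.3, 53.8, 82.1 and 63.1 CPM in the Scx-positive libraries, and the difference was 0.06 ± 0.09 (SE, edgeR adjusted p = 0.643). Scx-positive library 5 was far above the other Scx-positive libraries for this gene. Without it the log2 change of Lama5 was 0.19 and passed (edgeR adjusted p = 0.00804), as it did when GC content and transcript length were corrected for (0.15, edgeR adjusted p = 0.0227). Lama3, the alpha chain of epithelial laminin, was scarce and rose, with 5.47, 4.77, 4.53 and 4.95 CPM in the Scx-deleted libraries, against 3.16, 4.17, 2.33 and 3.10 CPM in the Scx-positive libraries. The groups did not overlap, and the log2 change was 0.65 ± 0.15 (SE, edgeR adjusted p = 0.00381). Lama1, the chain of the early embryo, had 8 to 19 counts per Scx-deleted library and 4 to 14 per Scx-positive library. Its log2 difference was 0.89 ± 0.39 (SE, edgeR adjusted p = 0.105), and it became 1.18 without Scx-positive library 5 (edgeR adjusted p = 0.0330).

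Among the beta chains, Lamb2 fell and Lamb1 did not pass. Lamb2, the beta chain of the neuromuscular synapse and the kidney filter (chromosome 9, 108479736 to 108490530, plus strand), had 324, 308, 309.6 and 321 CPM in the Scx-deleted libraries, against 387, 367, 497 and 389.7 CPM in the Scx-positive libraries. Scx-positive library 5 was the highest by a wide margin, although every Scx-deleted library lay below the lowest Scx-positive one. The log2 change was -0.38 ± 0.07 (SE, edgeR adjusted p = 0.00108), and -0.27 without that library. Lamb1, a widely expressed beta chain, had 362, 367, 363 and 339 CPM in the Scx-deleted libraries, against 356, 349.6, 361 and 385 CPM in the Scx-positive libraries, a difference of -0.02 ± 0.04 (SE, edgeR adjusted p = 0.76). Lamb3, the beta chain of epithelial laminin, had 3.95, 4.26, 4.12 and 3.96 CPM in the Scx-deleted libraries, against 6.88, 5.99, 5.96 and 5.29 CPM in the Scx-positive libraries. It fell, with a log2 change of -0.57 ± 0.11 (SE, edgeR adjusted p = 0.001) without overlap, in contrast to its partner chain Lama3, which rose.

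The gamma chain genes did not pass. Lamc1, the gamma chain of most laminins and the most abundant laminin gene per length, had 618, 609.9, 592 and 589 CPM in the Scx-deleted libraries, against 641, 614, 661 and 652 CPM in the Scx-positive libraries. All but the lowest Scx-positive library lay above the Scx-deleted ones, and the difference was -0.09 ± 0.04 (SE, edgeR adjusted p = 0.0888). With upper-quartile scaling it passed as lower, at -0.12 (edgeR adjusted p = 0.0316). Lamc3 had 21 to 28 counts per Scx-deleted library and 16 to 34 per Scx-positive library and a difference of 0.14 ± 0.23 (SE, edgeR adjusted p = 0.694).

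Per length, the summed alpha chains were far below the beta and gamma chains. The alpha sum was 24.2 ± 0.387 RPKM in Scx-deleted and 28.9 ± 0.917 RPKM in Scx-positive cells (SD, n = 4 each), the beta sum 119 ± 1.89 RPKM in Scx-deleted and 137 ± 10.9 RPKM in Scx-positive cells, and the gamma sum 79.2 ± 1.86 RPKM in Scx-deleted and 84.4 ± 2.67 RPKM in Scx-positive cells. Within the alpha sum, Lama4 took 15.9% ± 1.21 in Scx-deleted and 24.1% ± 1.80 in Scx-positive cells. Lama5 took 25.1% ± 1.18 in Scx-deleted and 20.02% ± 2.91 in Scx-positive cells, and Lama2 took 56.7% ± 1.94 in Scx-deleted and 54.7% ± 3.59 in Scx-positive cells. Lama4 was thus the second alpha chain in Scx-positive cells on average and the third in Scx-deleted cells, although the shares of Lama4 and Lama5 overlapped among Scx-positive libraries. Lama3 took 1.93% ± 0.178 in Scx-deleted and 1.05% ± 0.276 in Scx-positive cells. Within the beta sum, Lamb2 took 47.2% ± 1.33 in Scx-deleted and 53.1% ± 3.43 in Scx-positive cells.

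**Figure D3:**
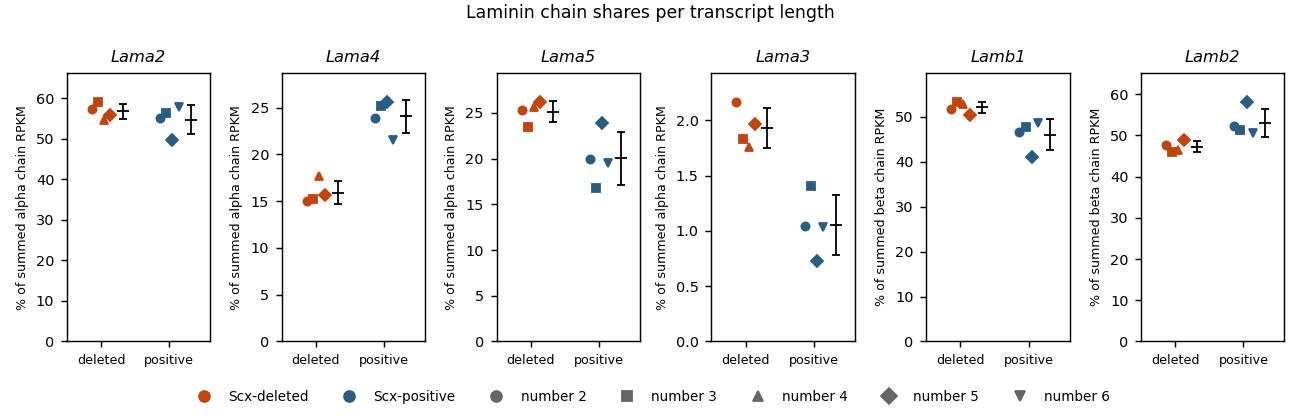
Share of each laminin chain in the summed RPKM of its class, in percent, with a point per library, symbols for the library number, and mean ± SD in black. Lama4 lies between 14.98% and 17.7% in Scx-deleted and between 21.6% and 25.6% in Scx-positive libraries.

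Collagen IV gives basement membranes their tensile strength, and its alpha 1 and alpha 2 chains form the ubiquitous network. Neither gene differed detectably. Col4a1 had 1144, 1089.9, 1272 and 1112 CPM in the Scx-deleted libraries, against 1083, 1028, 1229 and 1274 CPM in the Scx-positive libraries, a difference of 0.00 ± 0.07 (SE, edgeR adjusted p = 0.993). Col4a2 had 972, 936, 1057 and 949 CPM in the Scx-deleted libraries, against 919.7, 873, 1057 and 1056 CPM in the Scx-positive libraries, a difference of 0.00 ± 0.06 (SE, edgeR adjusted p = 0.982). The libraries that were high for the first chain were mostly high for the other. The genes lie head to head on chromosome 8, with RefSeq starts at 11312826 on the minus strand for Col4a1 and 11312805 on the plus strand for Col4a2, so their first exons overlap by 22 bases. The ratio of Col4a2 to Col4a1 counts averaged 0.848 ± 0.0120 in Scx-deleted and 0.847 ± 0.0131 in Scx-positive libraries (SD, n = 4 each).

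Col4a5, a chain of a second network that is best known from the kidney filter, fell. It had 238, 241, 223 and 229 CPM in the Scx-deleted libraries, against 272, 260.1, 277 and 287 CPM in the Scx-positive libraries. No library crossed between the groups, and the log2 change was -0.24 ± 0.04 (SE, edgeR adjusted p = 0.000613). Col4a6, its divergent neighbour on chromosome X, was far scarcer, at 3.64, 3.04, 4.41 and 3.24 CPM in the Scx-deleted libraries, against 4.59, 4.55, 4.19 and 4.54 CPM in the Scx-positive libraries. The difference was -0.33 ± 0.13 (SE, edgeR adjusted p = 0.0613) and did not pass. It passed without Scx-positive library 5 (-0.36, edgeR adjusted p = 0.0418), without Scx-deleted library 4 (-0.43, edgeR adjusted p = 0.0203) and with upper-quartile scaling (-0.35, edgeR adjusted p = 0.0466). It also passed with the replicate number as a block (-0.42, edgeR adjusted p = 0.0353) and with numbers 2, 3 and 5 only (-0.42, edgeR adjusted p = 0.0431). Col4a4 had 20 to 35 counts per Scx-deleted library and 18 to 38 per Scx-positive library and a difference of 0.15 ± 0.23 (SE, edgeR adjusted p = 0.658), and Col4a3 had 3 to 13 counts per Scx-deleted library and 6 to 13 per Scx-positive library and was not tested.

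Both nidogens, which bridge laminin and collagen IV, fell, and Nid2 fell more. Nid2 (chromosome 14, 19751265 to 19811787, plus strand) had 43.1, 37.8, 35.1 and 41.9 CPM in the Scx-deleted libraries, against 62.0, 63.3, 68.1 and 58.2 CPM in the Scx-positive libraries. The groups were well apart, with a log2 change of -0.67 ± 0.07 (SE, edgeR adjusted p = 2.14e-06). Exons of Rtraf on the opposite strand cover 8.45% of the Nid2 exon bases, and the use of strand in counting is not given in the sources used here. Nid1 had 2139, 2066, 2044 and 1944 CPM in the Scx-deleted libraries, against 2238, 2179, 2307 and 2303 CPM in the Scx-positive libraries, a narrow gap between the groups and a log2 change of -0.14 ± 0.04 (SE, edgeR adjusted p = 0.0214). That call was lost in 6 of 17 alternative fits, among them the fit with the replicate number as a block (-0.13, edgeR adjusted p = 0.127) and the fits without Scx-deleted library 3, 4 or 5 or Scx-positive library 6.

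Of the heparan sulfate proteoglycans, Hspg2 fell and Agrn did not pass. Hspg2, the gene of perlecan, had 3133, 2849.7, 2747 and 2788 CPM in the Scx-deleted libraries, against 3268, 2958, 3898 and 3635 CPM in the Scx-positive libraries. The groups overlapped, since Scx-positive library 3 lay below Scx-deleted library 2, and Scx-positive library 5 was the highest. The log2 change was -0.26 ± 0.07 (SE, edgeR adjusted p = 0.0136). It was -0.16 when GC content and transcript length were corrected for (edgeR adjusted p = 0.00197). The call was lost with numbers 2, 3 and 5 only (edgeR adjusted p = 0.129) and without Scx-deleted library 4 (edgeR adjusted p = 0.0512). Agrn, which organises the neuromuscular synapse, had 53.1, 42.7, 50.8 and 49.0 CPM in the Scx-deleted libraries, against 52.6, 49.0, 62.9 and 53.0 CPM in the Scx-positive libraries, overlapping groups and a difference of -0.16 ± 0.08 (SE, edgeR adjusted p = 0.145). With the replicate number as a block Agrn passed as lower, at -0.18 (edgeR adjusted p = 0.0386).

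The dystroglycan gene did not pass the test, and 3 genes of the complex around it fell. Dag1, which encodes both subunits of dystroglycan, the laminin receptor, had 596, 605, 594 and 610.0 CPM in the Scx-deleted libraries, against 531, 529, 607 and 558 CPM in the Scx-positive libraries. The Scx-deleted libraries were above 3 of the 4 Scx-positive ones, and the difference was 0.11 ± 0.05 (SE, edgeR adjusted p = 0.0782). Without Scx-positive library 5 it passed as higher, at 0.16 (edgeR adjusted p = 0.000875). It also passed as higher when GC content and transcript length were corrected for, at 0.12 (edgeR adjusted p = 0.00489).

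Among the sarcoglycans, membrane partners of dystroglycan, Sgcd had 49.2, 49.9, 44.1 and 50.4 CPM in the Scx-deleted libraries, against 66.1, 69.0, 60.1 and 63.1 CPM in the Scx-positive libraries. It fell, with a log2 change of -0.41 ± 0.06 (SE, edgeR adjusted p = 5.38e-05) with no overlap. Sgce had 77.5, 76.5, 74.3 and 73.9 CPM in the Scx-deleted libraries, against 85.6, 90.5, 92.3 and 75.3 CPM in the Scx-positive libraries, and Scx-positive library 6 lay among the Scx-deleted values. Its log2 change was -0.19 ± 0.06 (SE, edgeR adjusted p = 0.0236), and it was lost when GC content and transcript length were corrected for (-0.09, edgeR adjusted p = 0.314) and without Scx-deleted library 4 or 5 or Scx-positive library 2 or 3. Sgcb had 57.3, 50.7, 53.6 and 54.2 CPM in the Scx-deleted libraries, against 55.7, 54.5, 52.7 and 51.7 CPM in the Scx-positive libraries, a difference of 0.01 ± 0.05 (SE, edgeR adjusted p = 0.921).

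The dystrophin gene fell, and that of its paralogue utrophin did not pass. Dmd, the gene of dystrophin, had 29.5, 26.6, 28.1 and 27.9 CPM in the Scx-deleted libraries, against 33.5, 32.2, 31.9 and 34.8 CPM in the Scx-positive libraries. It fell, with a log2 change of -0.24 ± 0.05 (SE, edgeR adjusted p = 0.00381), with every Scx-deleted library below every Scx-positive one. Utrn, which was the more abundant of the pair, had 337, 365, 324 and 329 CPM in the Scx-deleted libraries, against 335, 339, 318 and 337 CPM in the Scx-positive libraries. Its groups overlapped and the difference was 0.03 ± 0.04 (SE, edgeR adjusted p = 0.678).

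The ratio of 2 members within a library does not depend on scaling, and 7 of 8 listed ratios could be run. Each was tested with a two-sided exact permutation test over the 8 libraries, whose smallest possible p is 0.0286, and adjusted over the 7. The ratios were chosen with earlier results of these data known. A ratio that passes is therefore a description and adds no independent support to the calls of its genes. The ratio of Lamb2 to Lamb1 counts was 0.895, 0.840, 0.854 and 0.946 in the Scx-deleted libraries, against 1.09, 1.05, 1.38 and 1.01 in the Scx-positive libraries. It was lower in Scx-deleted cells (-0.35 on the log2 scale, exact permutation p = 0.0286, adjusted p = 0.04). The ratio of Lama4 to Lama5 was 0.315, 0.345, 0.366 and 0.317 in the Scx-deleted libraries, against 0.636, 0.796, 0.570 and 0.588 in the Scx-positive libraries, a difference of -0.94 on the log2 scale, exact permutation p = 0.0286, adjusted p = 0.04. Lama4 to Lamc1 differed by -0.76 on the log2 scale, exact permutation p = 0.0286, adjusted p = 0.04. Every Scx-deleted library was below every Scx-positive library in these 3 ratios.

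The same held for 2 more ratios. Nid2 to Nid1 was 0.0201, 0.0183, 0.0172 and 0.0216 in the Scx-deleted libraries, against 0.0277, 0.0291, 0.0295 and 0.0253 in the Scx-positive libraries, a difference of -0.53 on the log2 scale, exact permutation p = 0.0286, adjusted p = 0.04. Dmd to Utrn was 0.0877, 0.0727, 0.0868 and 0.0850 in the Scx-deleted libraries, against 0.10, 0.0949, 0.1005 and 0.103 in the Scx-positive libraries, a difference of -0.27 on the log2 scale, exact permutation p = 0.0286, adjusted p = 0.04. The other two ratios did not pass. Col4a2 to Col4a1 differed by 0.00 on the log2 scale, exact permutation p = 0.8286, adjusted p = 0.8286, and Agrn to Hspg2 by 0.10 on the log2 scale, exact permutation p = 0.257, adjusted p = 0.3.

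**Figure D4:**
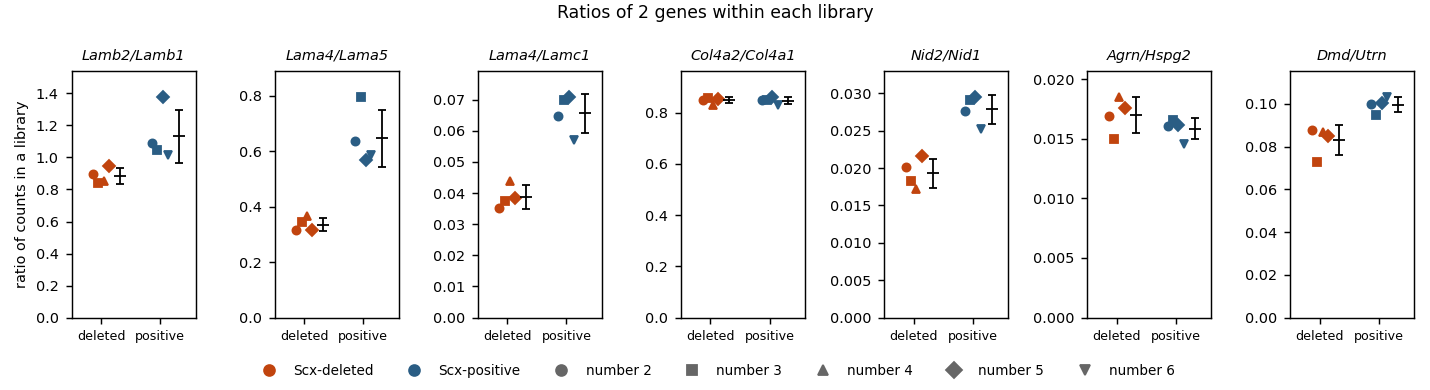
Ratio of the counts of 2 members in each library, a panel per pair, with symbols for the library number and mean ± SD in black. The Scx-deleted libraries lie below the Scx-positive ones in 5 of 7 panels, and Col4a2 to Col4a1 averages 0.848 in Scx-deleted and 0.847 in Scx-positive libraries.

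Hmcn1 changed most of the set. Its product, hemicentin 1, is a very large extracellular protein of the fibulin family, and in Caenorhabditis elegans hemicentin joins the basement membranes of neighbouring tissues. The gene lies on chromosome 1, 150562524 to 150993435, minus strand of GRCm38. Its level was 29.6, 30.8, 23.5 and 29.4 CPM in the Scx-deleted libraries, against 70.6, 68.0, 71.5 and 64.5 CPM in the Scx-positive libraries. Scx-deleted library 4 was the lowest of all, and the groups were far apart. The log2 change was -1.27 ± 0.07 (SE, edgeR adjusted p = 8.25e-09), and it was between -1.31 and -1.20 in the alternative fits, all of which called it.

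Smoc2 went the other way. It encodes a secreted calcium-binding protein related to SPARC and lies on chromosome 17, 14279506 to 14404790, plus strand. Its level was 301, 311, 329.6 and 304 CPM in the Scx-deleted libraries, against 226, 215, 230.4 and 229 CPM in the Scx-positive libraries. The groups did not overlap and the spread was small in both. The log2 change was 0.47 ± 0.04 (SE, edgeR adjusted p = 8.53e-07), from 0.44 to 0.49 in the alternative fits. Its paralogue Smoc1 was close to absent, at the counts given above.

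Npnt, the gene of nephronectin, an integrin alpha 8 ligand, fell. It had 17.9, 17.1, 17.3 and 15.9 CPM in the Scx-deleted libraries, against 20.7, 18.6, 20.6 and 22.2 CPM in the Scx-positive libraries, a log2 change of -0.27 ± 0.07 (SE, edgeR adjusted p = 0.00836). Its receptor gene Itga8 was scarce, at 1.53 ± 0.282 CPM in Scx-deleted and 1.45 ± 0.327 CPM in Scx-positive cells (SD, n = 4 each), a difference of 0.09 ± 0.20 (SE, edgeR adjusted p = 0.779). Fras1, a part of the Fraser complex that anchors epidermis to its basement membrane, had 6.07, 7.86, 6.39 and 5.53 CPM in the Scx-deleted libraries, against 8.92, 8.03, 8.17 and 8.65 CPM in the Scx-positive libraries. It fell, with a log2 change of -0.39 ± 0.11 (SE, edgeR adjusted p = 0.0127), with a gap between the groups that was narrow. The call for Fras1 was lost without Scx-deleted library 5 (-0.31, edgeR adjusted p = 0.0577) and with numbers 2, 3 and 5 only (edgeR adjusted p = 0.0725). Tinagl1, a secreted protein that binds laminins and integrins, had 383, 327, 354 and 351 CPM in the Scx-deleted libraries, against 368, 354, 435 and 377 CPM in the Scx-positive libraries, overlapping groups and a difference of -0.12 ± 0.06 (SE, edgeR adjusted p = 0.166).

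**Figure D5:**
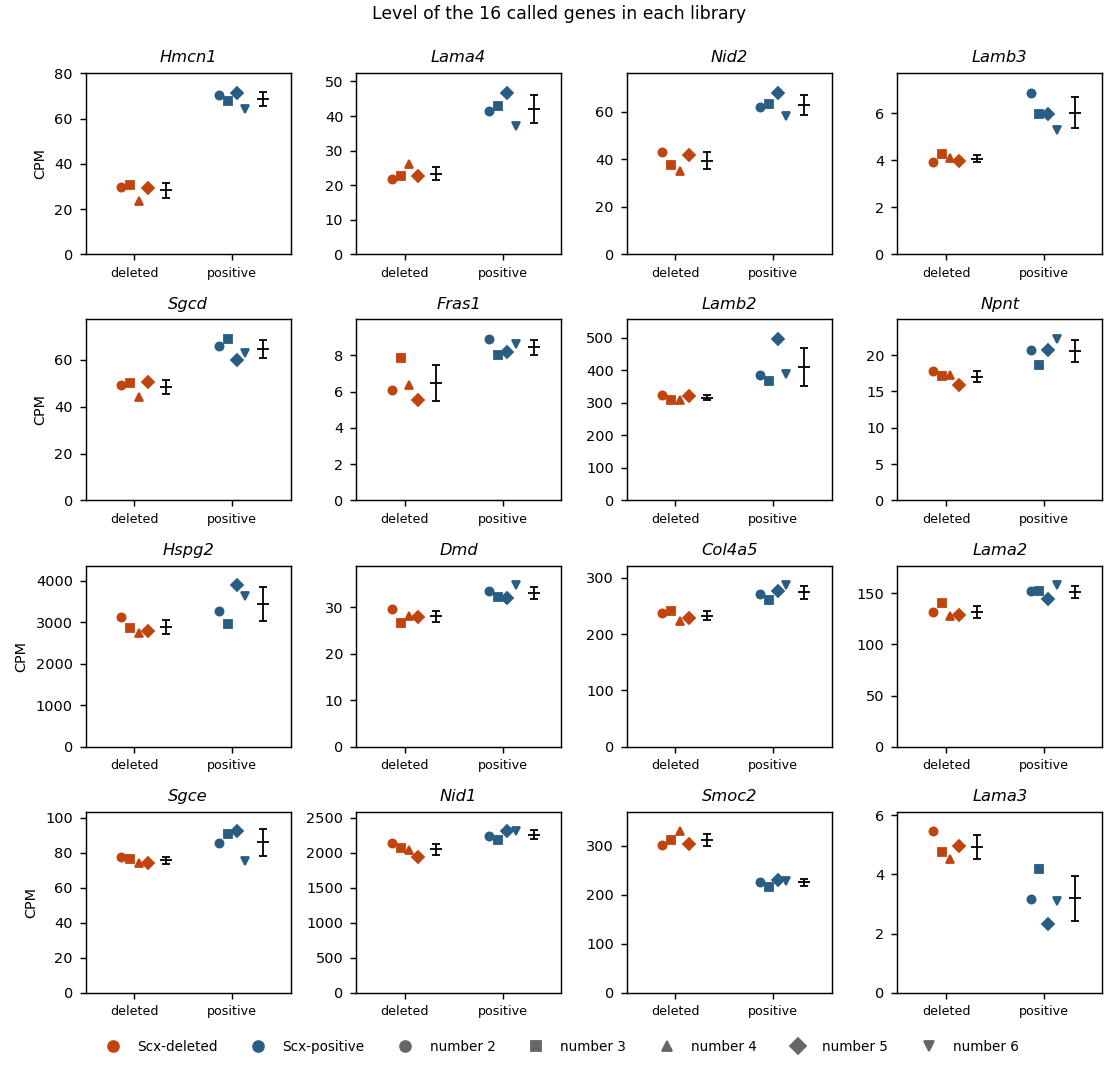
CPM of the 16 called members in each library, with symbols for the library number and mean ± SD in black, ordered from the largest fall (Hmcn1) to the largest rise (Lama3). The groups overlap only for Hspg2 and Sgce.

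Other genes of the pathway, from 5 lists with 76 tested genes, moved in both directions: 13 rose (17.1%) and 16 fell (21.1%). Across all genes tested, 14.0% rose and 14.5% fell. The count that fell was 10 without Scx-deleted library 5, a fit in which 10.8% of all genes tested fell. Among integrins and collagen receptors 1 of 13 rose and 5 fell, so that 46.2% were called, against 28.5% of all genes tested. Itga7, the laminin receptor of muscle, rose (log2 change 0.53 ± 0.07, SE, edgeR adjusted p = 2.12e-05). Itga3, which also binds laminins, fell (log2 change -0.22 ± 0.04, SE, edgeR adjusted p = 0.000952), as did Itga9 (-0.38) and the collagen receptor gene Ddr1 (-0.29). The shared integrin chain Itgb1 stood at 1444 ± 22.7 CPM in Scx-deleted and 1415 ± 65.5 CPM in Scx-positive cells (SD, n = 4 each) and did not pass, nor did Itga6, a difference of -0.09 ± 0.05 (SE, edgeR adjusted p = 0.223).

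Among 13 tested partners of the dystrophin complex 4 rose and 4 fell (61.5% called, against 28.5% of all genes tested). The agrin receptor gene Lrp4 fell (log2 change -0.53 ± 0.08, SE, edgeR adjusted p = 0.00017), as did the sarcospan gene Sspn (-0.30) and the syntrophin gene Sntb2 (-0.19). Of 17 enzymes that build the laminin-binding sugars of dystroglycan 3 rose and 1 fell (23.5% called, below the share of all genes tested). Dpm2 (log2 change 0.18 ± 0.05, SE, edgeR adjusted p = 0.00985) and B3galnt2 (0.14) were among those that rose, while Ispd fell (-0.27).

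In the list of other basement membrane components 1 of 16 rose and 3 fell (25% called, below the 28.5% of all genes tested). Netrin 1 (Ntn1), a guidance protein related to laminins, fell, with a log2 change of -0.67 ± 0.07 (SE, edgeR adjusted p = 4.63e-06), and Megf6 (-1.15) and Sparc (-0.15) fell. Among 17 genes of collagen IV assembly and basement membrane turnover 4 rose and 3 fell (41.2% called). Pxdn, whose enzyme cross-links collagen IV, fell (log2 change -0.34 ± 0.04, SE, edgeR adjusted p = 1.36e-05), and the protease genes Mmp3 (1.28), Mmp2 (0.36) and Ctsl (0.20) rose.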

How the data were processed

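RNA was measured in 4 Scx-deleted and 4 Scx-positive libraries, grouped by the names in the labels. Per the labels' protocols, RNA was purified by miRNeasy Micro with DNase treatment. Per the submitters' processing notes, the tools were FastQC, STAR and DESeq2 on mm10. Their roles and versions, strand use, the annotation and the counter are not stated in those notes. The authors deposited unnormalized whole-number counts for each gene symbol. Rows for reads in no feature (7.44% to 8.67% of counts) and ambiguous reads (0.490% to 0.567%) were left out. The authors' deposited comparison table holds a normalized mean signal, a log2 fold change with its standard error, a test statistic (a score) and p-values, raw and adjusted, per the file headers. Its direction was read from the counts, and the group columns were not used.

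Genes passed filterByExpr (minimum count 10, total 15), which left 13125. edgeR 4.0.16 in R 4.3.3 with TMM factors and quasi-likelihood tests fitted genotype alone, with log2 changes given as Scx-deleted over Scx-positive. P-values were adjusted by Benjamini-Hochberg over all genes tested, and calls are at 0.05. Standard errors are the log2 change over the square root of F. CPM uses TMM factors. GENCODE mouse release 21 on GRCm38 held the symbols (24490 of 24982). Count ratios had 0.5 counts added before the log2 for the test; Smoc2 to Smoc1 was not run, since Smoc1 had too few counts. Fits were tested on simulated counts. No pair of replicates was closer than sampling noise. The members, lists, ratios and tests were chosen with earlier results of these data known. All members are named; of each other list up to 4 called genes with the smallest p are named, plus receptors set beside a ligand. A few genes that this rule names are not reported here but stay in every count. Upstream bases planned for Col4a1, Col4a2 and the largest changes are not shown, since those of Col4a1 and Col4a2 lie in each other's first exon. The sequences shown instead, and Itga6, Itgb1 and Itga8, were chosen after their values were seen. Alternatives were upper-quartile and RLE scaling, no filter, 5 CPM in 4 libraries, DESeq2 1.42.0, limma-voom (limma 3.58.1), a replicate block, numbers 2, 3 and 5 only, splines on GC content and transcript length, thresholds of 0.01 and 0.1, and each library left out. RPKM uses the longest transcript, which may not be the one expressed.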

Additional observations from a re-analysis of the deposited data

Results flagged for a closer look

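Among the 70 groups of 4 values (35 members in each genotype), 2 held a library far from the others, where chance gives about 1 in 20. Lamb1 stood at 339 CPM in Scx-deleted library 5, where the rest of that group held 362 to 367 CPM. Col4a6 stood at 4.19 CPM in Scx-positive library 5, where the rest of that group held 4.54 to 4.59 CPM. Neither gene passed the test with all libraries.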

How the results depend on the processing

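No called member changed direction in any of the 17 alternative fits. Of the 16 called members 11 passed in every alternative fit that tested them; Nid1, Hspg2, Sgce, Fras1 and Npnt were lost in some, and Npnt only with numbers 2, 3 and 5 alone (edgeR adjusted p = 0.0590). The count of members that rose, 2, was 1 with the filter of 5 CPM in 4 libraries, which leaves out Lama3, and 4 with GC content and transcript length corrected for, where 20.4% of all genes tested rose, and it ranged from 2 to 5 when each library was left out. The count that fell, 14, ranged from 11 to 15 in those fits. Of the other pathway genes, 10 fell instead of 16 at an adjusted p under 0.01, where 8.71% of all genes tested fell. Leaving out each library gave 10 to 18, beside the shares of all genes tested given above. The labels do not say whether a number shared by the groups pairs the libraries. Deviations correlated at -0.14 for number 2, 0.33 for number 3 and 0.18 for number 5. Libraries of unlike number correlated from -0.47 (Scx-deleted 3 with Scx-positive 5) to 0.33 (Scx-deleted 2 with Scx-positive 5). So few values of mixed sign cannot decide about pairing. With the replicate number as a block, 2 members rose and 15 fell, where 11.9% of all genes tested rose and 12.8% fell. With that block the ratio differences kept their sign and stayed within the replicate spread. Leaving out a library leaves 35 splits, where no permutation p can be below 0.0571, so those ratios were compared by value only. Members with under 20 counts per library, such as Lama1 and Col4a3, are limited by depth.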

Other observations

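The authors' deposited table lists 32 of the 35 members and calls 19 at its adjusted p under 0.05, where 29.2% of its 14511 genes are called. All 16 members called from the counts are called there in the same direction. Its 3 additional calls are Lamc1, with a log2 fold change of -0.11 and an adjusted p of 0.00338 in the authors' deposited table, Dag1 (0.13, adjusted p of 0.00427 in the authors' deposited table) and Tinagl1 (-0.13, adjusted p of 0.0198 in the authors' deposited table).

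The epithelial laminin chain genes Lama3 and Lamb3 were split in direction, since Lama3 rose and Lamb3 fell. Per length, Lama3 and Lamb3 were both under 1.5 RPKM in each group mean. Keratin genes of simple epithelia rose as well, with Krt18 at 9.59 ± 1.42 CPM in Scx-deleted and 3.94 ± 0.427 CPM in Scx-positive cells (SD, n = 4 each). Its change on the log2 scale was 1.29 ± 0.12 (SE, edgeR adjusted p = 1.5e-06), while Epcam, Cdh1, Krt5 and Krt14 averaged below 0.3 CPM in both groups. Krt8, which also rose, had 10 to 20 counts per Scx-deleted library and 3 to 8 per Scx-positive library. Dsp, the most abundant of the 10 epithelial genes listed, did not pass (edgeR adjusted p = 0.739). It stood at 82.9 ± 1.46 CPM in Scx-deleted and 84.1 ± 0.686 CPM in Scx-positive cells. The part of epithelial genes in the laminin changes was not tested.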
